A study of Homo sapiens with 8 samples.

Results

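The 10 genes described here encode the 5 subunits of the transcription factor NF-κB (*NFKB1*, *NFKB2*, *RELA*, *RELB* and *REL*) and 5 proteins that hold it back or relay signals to it (*NFKBIA*, *NFKBIE*, *TNFAIP3*, *BIRC3* and *TRAF3*). They were picked from the deposited RNA-seq table by gene symbol, 1 row for each gene, out of 63129 rows. Of these rows, 33312 had a value above 0 in at least 1 library used here, and all 10 NF-κB genes passed the requirement of a mean of at least 1 RPKM. RPKM, the unit of the table, is reads divided by the length of the gene and by the mapped reads of its library. It thus adjusts for gene length and for mapped reads, and other scalings between libraries are given below as alternatives.

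The RNA came from LP-1, an established line of multiple myeloma cells, grown in IMDM medium with 10% serum and harvested after 6 hr of treatment. The 4 groups hold 2 biological replicates each, namely 2.5 μM SGC-CBP30 and its DMSO libraries, and 250 nM CPI203 and its own DMSO libraries. The labels name no experiments and do not state in words which DMSO pair belongs to which compound. The word experiment below stands for a series of library numbers, by which the DMSO pairs were matched to the compounds. SGC-CBP30 blocks the bromodomains of the co-activators CBP and EP300, CPI203 blocks those of the BET proteins, and DMSO is the solvent control. Everything below therefore describes a single cell line at a single time and a single dose of each compound, with 2 libraries in every group.

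NF-κB acts as dimers of its subunits. In resting cells the dimers are bound in the cytoplasm by inhibitory IκB proteins, and kinases that mark an IκB for degradation free the dimer to enter the nucleus. A second route starts from the precursor protein of *NFKB2* and is kept off by a complex of TRAF proteins and BIRC proteins that has the kinase NIK destroyed. Several of the inhibitors are themselves genes that NF-κB switches on, which makes them feedback genes, and lesions in this pathway are recurrent in multiple myeloma.

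With SGC-CBP30, *TNFAIP3* fell to 46.7% of its DMSO level, *BIRC3* to 55.8% and *REL* to 60.4%, whereas *NFKBIA* rose to 152%. These 4 of the 10 genes were called, meaning an adjusted p under 0.05 in limma and a change of at least 1.5-fold. Among all 14732 genes tested, 7.26% were called, 3.47% higher and 3.79% lower, beside 1 and 3 of the 10 genes. Without a minimum fold change, 7 of the 10 genes had an adjusted p under 0.05, 6 of them lower, beside 40.4% of all genes. In 9 of the 10 genes the SGC-CBP30 libraries did not overlap with their DMSO libraries, as in 73.1% of all genes, and *RELA* was the exception. The median log2 fold change of the 10 genes was -0.36, beside 0.07 over all genes tested.

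With CPI203 *NFKB1* fell to 64.4% of its DMSO level and *TNFAIP3* to 66.0%, and *NFKBIA* rose to 193%. These were the 3 genes called, beside 27.8% of all genes, with 1 higher (13.4% of all genes) and 2 lower (14.4% of all genes). The share of NF-κB genes called with CPI203 was thus close to the share among all genes. An adjusted p under 0.05 was reached by 6 of the 10 genes, 5 of them lower, beside 64.2% of all genes. The CPI203 and DMSO libraries did not overlap in 8 of the 10 genes, beside 80.8% of all genes, the exceptions being *NFKB2* and *RELA*. The median log2 fold change of the 10 genes was -0.28, beside -0.01 over all genes.

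**Figure D1:**
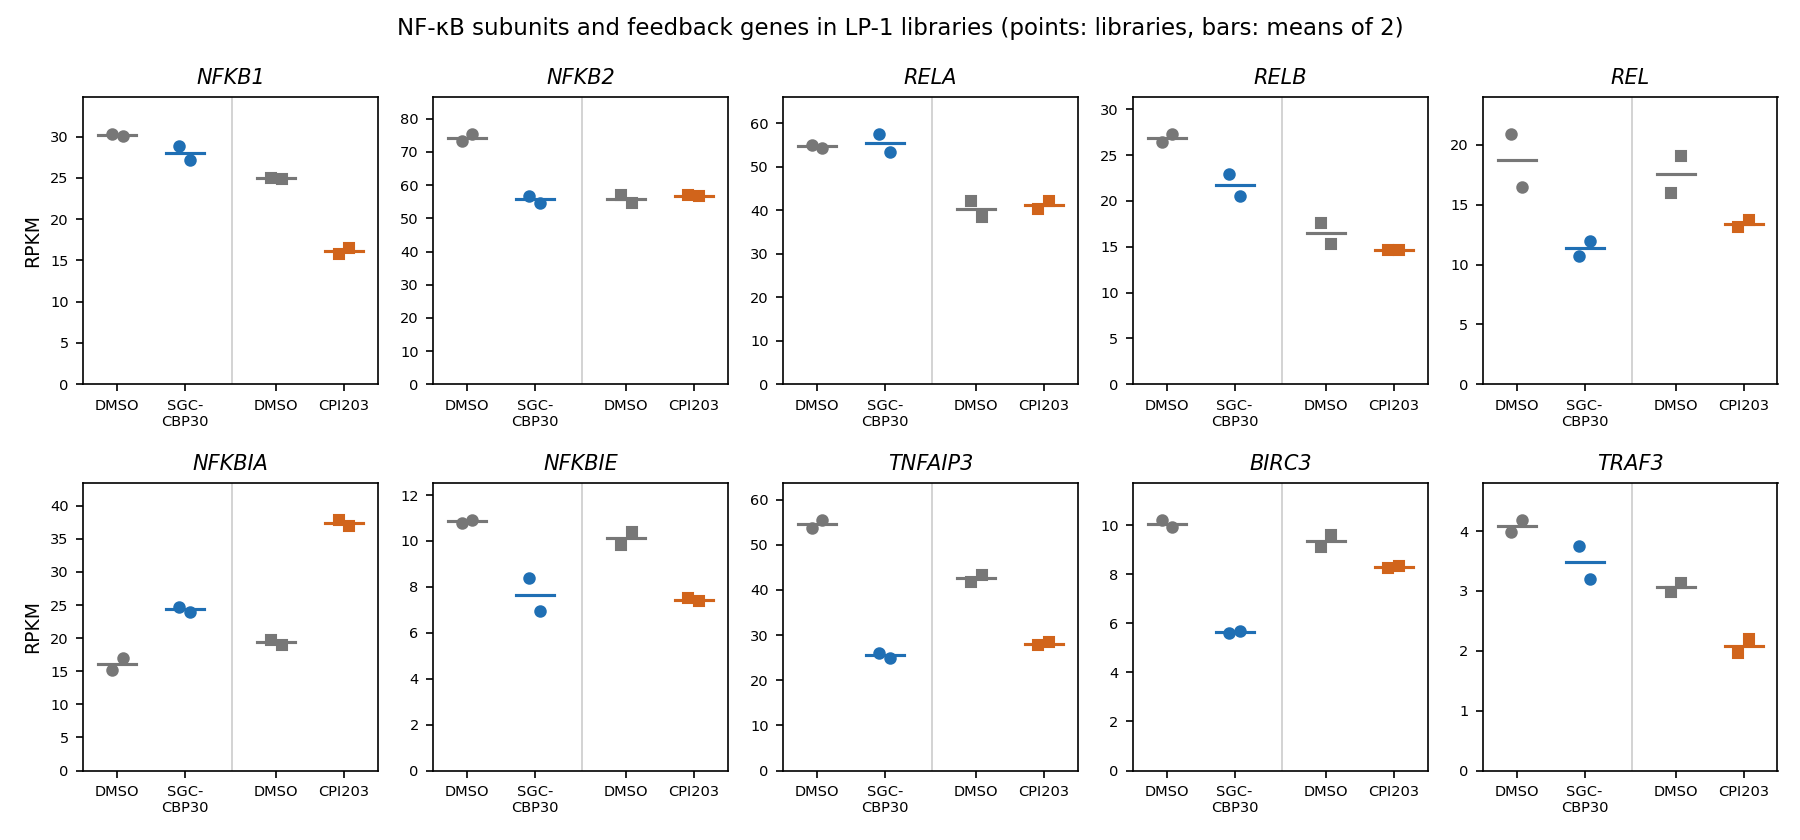
Level in RPKM (vertical axes, starting at 0) of each of the 10 NF-κB genes in the 8 LP-1 libraries, with points for libraries, bars for means of 2, and a grey line between the SGC-CBP30 experiment (left) and the CPI203 experiment (right). *TNFAIP3* lies below DMSO with both compounds and *NFKBIA* above it, *BIRC3* drops to 5.61 and 5.67 RPKM with SGC-CBP30, and *NFKB1* to 15.8 and 16.5 RPKM with CPI203.

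The promoters of the 5 called genes are shown because these genes moved in different directions. The sequences are RefSeq's, on GRCh38.p14, which is not the build of the deposited table, and each is cut from a window of 250 bases before to 50 bases after a gene start. They are written 5′ to 3′ on the strand of the gene, and capitals mark matches on either strand to the NF-κB consensus, a motif of 10 letters. *NFKBIA* and *TNFAIP3*, the genes with the clearest changes with both compounds, are given as the 250 bases before the start, and the other genes as the stretch around their matches.
NFKBIA: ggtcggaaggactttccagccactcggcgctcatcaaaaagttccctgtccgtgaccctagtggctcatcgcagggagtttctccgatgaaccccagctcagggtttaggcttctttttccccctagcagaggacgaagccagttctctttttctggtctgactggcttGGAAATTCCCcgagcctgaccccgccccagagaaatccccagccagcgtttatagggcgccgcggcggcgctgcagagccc
TNFAIP3: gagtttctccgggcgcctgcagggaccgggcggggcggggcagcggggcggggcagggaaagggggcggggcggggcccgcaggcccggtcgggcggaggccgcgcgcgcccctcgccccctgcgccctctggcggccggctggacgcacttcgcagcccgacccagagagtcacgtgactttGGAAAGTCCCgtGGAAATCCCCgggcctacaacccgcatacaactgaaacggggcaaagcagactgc
BIRC3: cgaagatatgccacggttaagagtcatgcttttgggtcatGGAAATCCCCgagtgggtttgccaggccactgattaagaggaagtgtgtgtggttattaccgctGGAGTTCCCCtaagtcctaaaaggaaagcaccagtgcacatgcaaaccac
NFKB1: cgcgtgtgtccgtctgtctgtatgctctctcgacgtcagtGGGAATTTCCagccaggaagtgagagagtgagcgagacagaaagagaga
REL: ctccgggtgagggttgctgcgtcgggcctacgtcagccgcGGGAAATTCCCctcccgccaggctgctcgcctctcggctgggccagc

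*NFKBIA* (chr14:35404750-35404999, minus strand) holds 1 match, which starts 81 bases before the gene start, whereas *TNFAIP3* (chr6:137867009-137867258, plus strand) holds 2 matches, 67 and 55 bases before it. The stretch of *BIRC3* (chr11:102317245-102317398, plus strand) holds matches 199 and 135 bases before the start. The stretches of *NFKB1* (chr4:102501270-102501358, plus strand) and *REL* (chr2:60881487-60881573, plus strand) hold a match 49 bases before the start in *NFKB1* and a pair of overlapping matches 47 and 46 bases before it in *REL*. Windows were given for 8 of the 10 genes, and 8 of their 12 windows, from 7 genes, held a match, beside 5.91% of the 35116 windows of all genes. *RELA* has 2 windows and no match in either, and *RELB* and *NFKBIE* have no entry. A further window of *NFKB1* (chr4:102501684-102501983) also holds no match, and neither does a window of *NFKB2* (chr10:102393860-102394159). The motif was thus found both in the gene called higher with both compounds (*NFKBIA*) and in the gene called lower with both (*TNFAIP3*). A match describes letters and not binding, which was not measured in these libraries.

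*NFKB1* (chr4:103422485-103538459, in the table's build hg19, as for the genes that follow) encodes the precursor of a DNA-binding subunit of the canonical dimer. It stood at 30.3 and 30.1 RPKM in DMSO against 28.8 and 27.2 RPKM with SGC-CBP30, and in the CPI203 experiment at 25.0 and 24.9 RPKM in DMSO and at 15.8 and 16.5 RPKM with CPI203. The treated libraries lay below DMSO in both experiments, narrowly with SGC-CBP30 and by more than the spread of any pair with CPI203. The log2 fold change was -0.11 (SE 0.05, adjusted p = 0.109) with SGC-CBP30, or -0.19 (adjusted p = 0.0175) after median scaling, and -0.63 (SE 0.05, adjusted p = 3.15e-06) with CPI203. The difference between these effects, the CPI203 effect minus the SGC-CBP30 effect, was -0.52 (95% interval -0.67 to -0.36, adjusted p = 0.000247). All adjusted p-values are from limma with Benjamini-Hochberg adjustment over all genes tested, and an exact two-sided permutation test of 2 libraries against 2 cannot give a p under 0.333.

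*NFKB2* (chr10:104153866-104162281), the precursor subunit of the noncanonical route, showed the opposite pairing. Its levels were 73.2 and 75.4 RPKM in DMSO against 56.7 and 54.7 RPKM with SGC-CBP30, a clear separation. In the CPI203 experiment they were 57.1 and 54.5 RPKM in DMSO and 56.9 and 56.6 RPKM with CPI203, which overlap. *NFKB2* fell with SGC-CBP30 (log2 fold change -0.41, SE 0.041, adjusted p = 7.88e-05), and with CPI203 its log2 fold change was 0.02 (95% interval -0.07 to 0.12, adjusted p = 0.629). The effects of the compounds differed by 0.44 (95% interval 0.31 to 0.57, adjusted p = 0.000186). The 2 DMSO pairs also differed from each other, with both DMSO libraries of the CPI203 experiment close to the SGC-CBP30 libraries, and with all 4 DMSO libraries as the control the SGC-CBP30 change was -0.21 (adjusted p = 0.316).

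*RELA* (chr11:65421066-65430565), the main transactivating subunit of the canonical dimer, had log2 fold changes near 0 with both compounds. Its levels were 55.0 and 54.3 RPKM in DMSO, 57.5 and 53.4 RPKM after SGC-CBP30, 42.2 and 38.4 RPKM in the other DMSO pair, and 40.3 and 42.2 RPKM with CPI203. Treated and DMSO libraries overlapped in both experiments, while all 4 libraries of the CPI203 experiment lay below all 4 of the SGC-CBP30 experiment. The log2 fold changes were 0.02 (95% interval -0.11 to 0.15, adjusted p = 0.798) and 0.03 (95% interval -0.09 to 0.16, adjusted p = 0.616), or 0.24 (adjusted p = 0.294) and -0.19 (adjusted p = 0.313) with all 4 DMSO libraries as the control.

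*RELB* (chr19:45504687-45541452) is the partner of the processed *NFKB2* product. It was read at 26.4 and 27.3 RPKM in DMSO against 22.9 and 20.5 RPKM with SGC-CBP30, and at 17.6 and 15.3 RPKM in the other DMSO pair and 14.6 RPKM in both CPI203 libraries. *RELB* fell with SGC-CBP30 (log2 fold change -0.31, SE 0.076, adjusted p = 0.0103), a call by p alone that did not hold without DMSO replicate 2 (adjusted p = 0.0625), without SGC-CBP30 replicate 2 (adjusted p = 0.091) or with no filter (adjusted p = 0.0731). With all 4 DMSO libraries as the control its change was 0.04 (adjusted p = 0.914) with SGC-CBP30 and -0.52 (adjusted p = 0.0903) with CPI203. With CPI203 its log2 fold change was -0.16 (adjusted p = 0.0863), which became -0.26 (adjusted p = 0.0154) without DMSO replicate 2 of that experiment. A difference between the compounds was not detected (0.15, 95% interval -0.10 to 0.39, adjusted p = 0.287).

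*REL* (chr2:61108655-61150645), the c-Rel subunit of lymphoid cells, had the widest spread in RPKM of the subunits between the DMSO replicates of the SGC-CBP30 experiment. Its DMSO libraries gave 20.9 and 16.5 RPKM, and its SGC-CBP30 libraries 10.7 and 12 RPKM. The DMSO libraries of the CPI203 experiment gave 16.0 and 19.1 RPKM, and the CPI203 libraries 13.1 and 13.7 RPKM. Treated libraries were lower than every DMSO library in each experiment. On the log2 scale, the fall of *REL* was -0.71 with SGC-CBP30 (SE 0.12, adjusted p = 0.00137) and -0.38 with CPI203 (SE 0.12, adjusted p = 0.016). The SGC-CBP30 value ranged from -0.88 to -0.54 as single libraries were left out, and fell short of 1.5-fold without DMSO replicate 1. The CPI203 value had an adjusted p of 0.124 without DMSO replicate 2 and of 0.0706 without CPI203 replicate 1. The effects lay 0.33 apart (95% interval -0.04 to 0.70, adjusted p = 0.125), and by 0.50 (adjusted p = 0.024) without DMSO replicate 2 of the SGC-CBP30 experiment.

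The balance of the subunit transcripts can be followed in their sum. The 5 subunits together gave 206 and 204 RPKM in DMSO against 177 and 168 RPKM with SGC-CBP30, and 158 and 152 RPKM in DMSO against 141 and 144 RPKM with CPI203. Within this sum *NFKB2* took 35.6% and 37.1% in DMSO and 32.1% and 32.6% with SGC-CBP30, but 36.2% and 35.8% in DMSO and 40.4% and 39.4% with CPI203. *NFKB1* took 14.7% and 14.8% in DMSO and 16.3% and 16.2% with SGC-CBP30, but 15.8% and 16.4% in DMSO and 11.2% and 11.5% with CPI203. The shares of the precursor subunits thus moved in opposite directions with the compounds, with no overlap between treated and DMSO libraries. The sum itself was lower in the treated libraries of both experiments, so a share could rise without a rise in level. The treated *NFKB1* levels with SGC-CBP30 lay below DMSO although its share rose. With CPI203 the *NFKB2* levels overlapped with DMSO although its share rose. *RELA* took 26.7% in both DMSO libraries and 32.6% and 31.8% with SGC-CBP30, and 26.7% and 25.2% in DMSO and 28.6% and 29.4% with CPI203. These sums, and the ratios below, were chosen after the values had been seen and are given without a test.

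**Figure D2:**
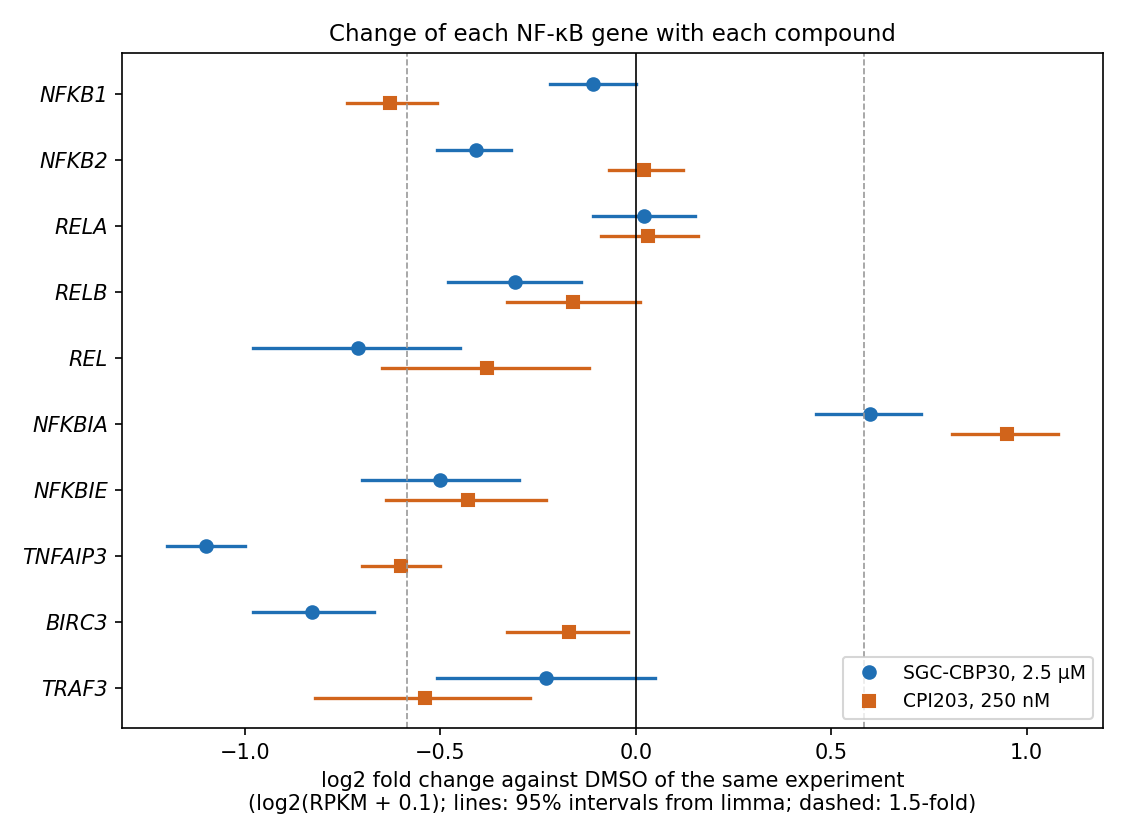
Log2 fold change of the 10 NF-κB genes (horizontal axis, on the log2(RPKM + 0.1) scale) with SGC-CBP30 (circles) and CPI203 (squares), each against the 2 DMSO libraries of its experiment, with 95% intervals from limma that are not adjusted for the number of genes and dashed lines at 1.5-fold. *NFKBIA* lies to the right with both compounds (0.60 and 0.95), and *BIRC3* shows the widest gap between them (-0.83 and -0.17).

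Among the inhibitors, the IκB genes *NFKBIA* and *NFKBIE* went opposite ways. *NFKBIA* (chr14:35870716-35873955) encodes IκBα, the inhibitor that NF-κB resynthesises after activation. It was measured at 15.2 and 17.0 RPKM in DMSO against 24.7 and 24.0 RPKM with SGC-CBP30, and at 19.7 and 19.0 RPKM in DMSO and 37.8 and 37.0 RPKM with CPI203. Every treated library was above every DMSO library, and the CPI203 libraries were the highest of all 8. *NFKBIA* rose by 0.60 (SE 0.061, adjusted p = 9.7e-05) with SGC-CBP30 and by 0.95 (SE 0.061, adjusted p = 7.88e-07) with CPI203, and the rise with CPI203 was larger by 0.35 (95% interval 0.16 to 0.54, adjusted p = 0.00756). The SGC-CBP30 value sits on the 1.5-fold limit of 0.585 and ranged from 0.46 to 0.68 over the alternatives, with a highest adjusted p of 0.0256. It was short of the limit with all 4 DMSO libraries as the control (0.46), median scaling (0.52), quantile normalization (0.53) and a pseudocount of 1 (0.57). The same held without DMSO replicate 1 (0.52) and without SGC-CBP30 replicate 1 (0.58).

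*NFKBIE* (chr6:44225902-44233500), which encodes IκBε, gave 10.8 and 10.9 RPKM in DMSO against 8.38 and 6.95 RPKM with SGC-CBP30. In the CPI203 experiment it gave 9.82 and 10.4 RPKM in DMSO and 7.52 and 7.37 RPKM with CPI203. Both treated pairs were below their DMSO pairs by about the same amount. *NFKBIE* fell by 0.50 with SGC-CBP30 (SE 0.091, adjusted p = 0.00221) and by 0.43 with CPI203 (SE 0.091, adjusted p = 0.00199), each short of 1.5-fold. Without SGC-CBP30 replicate 1 the first value passed 1.5-fold at -0.63. The effects of the compounds lay 0.07 apart, which was not a detectable difference (95% interval -0.22 to 0.36, adjusted p = 0.682).

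*TNFAIP3* (chr6:138188350-138204449) encodes A20, a ubiquitin-editing enzyme that ends NF-κB signalling. Its DMSO libraries gave 53.8 and 55.4 RPKM and its SGC-CBP30 libraries 26.0 and 25.0 RPKM. The DMSO libraries of the CPI203 experiment gave 41.8 and 43.3 RPKM, and the CPI203 libraries 27.8 and 28.4 RPKM. The treated libraries of both experiments lay between 25.0 and 28.4 RPKM, closer together than their DMSO pairs. *TNFAIP3* fell by 1.10 with SGC-CBP30 (SE 0.044, adjusted p = 3.72e-07), the only change of 2-fold or more among the 10 genes with either compound. With all 4 DMSO libraries as the control that value was -0.92, and *NFKBIA* with CPI203 was at 1.08 (adjusted p = 7.2e-05). With CPI203 it fell by 0.60 (SE 0.044, adjusted p = 1.9e-06), a value that was -0.57 without DMSO replicate 2 and -0.58 without CPI203 replicate 1, just short of 1.5-fold. The fall was larger with SGC-CBP30, by 0.50 (95% interval 0.36 to 0.64, adjusted p = 0.000138).

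The position of *TNFAIP3* overlaps that of *RP11-356I2.4*, and how the counting treated strand is not given in the sources used here, so reads of these genes may have been shared. *RP11-356I2.4* gave 12.4 and 11.4 RPKM in DMSO, 7.85 and 7.19 RPKM after SGC-CBP30, 11 and 10.7 RPKM in the other DMSO pair and 2.79 and 2.44 RPKM with CPI203. It fell by 0.65 (adjusted p = 0.000614) and by 2.01 (adjusted p = 1e-07), and thus fell more with CPI203 where *TNFAIP3* fell more with SGC-CBP30. The part of this overlap in the *TNFAIP3* values was not tested. The other genes that overlap a member's position, with *NFKB1*, *REL* and *TRAF3*, were at 0 in all 8 libraries.

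*BIRC3* (chr11:102188214-102210134) encodes cIAP2, a ubiquitin ligase of the complex that keeps the noncanonical route off. It stood at 10.2 and 9.93 RPKM in DMSO against 5.61 and 5.67 RPKM with SGC-CBP30. In the CPI203 experiment it stood at 9.10 and 9.60 RPKM in DMSO and at 8.26 and 8.32 RPKM with CPI203, so that replicates were close and the treated libraries were lower in both. *BIRC3* fell by 0.83 with SGC-CBP30 (SE 0.069, adjusted p = 3.01e-05), while with CPI203 the log2 fold change was -0.17 (SE 0.069, adjusted p = 0.0537). Across the alternatives the CPI203 value lay between -0.22 and -0.13 and its adjusted p between 0.0198 and 0.205. The difference between the compounds, 0.65 (95% interval 0.43 to 0.87, adjusted p = 0.000422), was the largest among the 10 genes.

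*TRAF3* (chr14:103243812-103377837), the adaptor that brings NIK to that ligase, had the lowest level of the 10 genes. It gave 3.99 and 4.18 RPKM in DMSO against 3.75 and 3.20 RPKM with SGC-CBP30, and 2.99 and 3.13 RPKM in DMSO and 1.96 and 2.19 RPKM with CPI203. Treated libraries were lower in both experiments, but the SGC-CBP30 libraries differed from each other by more than the first of them did from DMSO. *TRAF3* fell by 0.54 with CPI203 (SE 0.12, adjusted p = 0.00327), by 0.62 without CPI203 replicate 2 and by 0.74 (adjusted p = 0.00565) with all 4 DMSO libraries as the control, and its log2 fold change with SGC-CBP30 was -0.23 (SE 0.12, 95% interval -0.51 to 0.05, adjusted p = 0.165). A difference between the compounds was not detected (-0.31, 95% interval -0.70 to 0.08, adjusted p = 0.165).

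In all, 5 of the 10 genes differed between the compounds, namely *NFKB1*, *NFKB2*, *NFKBIA*, *TNFAIP3* and *BIRC3*, beside 50.3% of all genes tested. The share of NF-κB genes with a different response was therefore close to that of all genes. Since each compound had its own library series, called an experiment here, and its own dose, the compound, the dose and the series cannot be told apart in these differences. The DMSO pairs also differed between the experiments, a comparison added after the data had been seen. An adjusted p under 0.05 between them was found for 7 of the 10 genes, beside 41.7% of all genes. Of these, 6 were lower in the CPI203 experiment's DMSO libraries, from *RELB* (-0.71) and *RELA* (-0.44) over *NFKB2* (-0.41), *TRAF3* (-0.40) and *TNFAIP3* (-0.36) to *NFKB1* (-0.27), and *NFKBIA* was higher (0.27).

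The order of the 10 levels changed with treatment. In DMSO of the SGC-CBP30 experiment *NFKB2* led at 74.3 RPKM on average, followed by *TNFAIP3* and *RELA*, both at 54.6 RPKM and not separable, and by *NFKB1*, *RELB*, *REL*, *NFKBIA*, *NFKBIE*, *BIRC3* and *TRAF3*. The libraries of *REL* and *NFKBIA* also overlapped there, and those of the remaining neighbours in the order did not. With SGC-CBP30 *NFKB2* (55.7 RPKM) and *RELA* (55.5 RPKM) overlapped at the top, and *TNFAIP3* dropped behind *NFKB1*. *NFKBIA* moved up past *RELB* and *REL*. In DMSO of the CPI203 experiment the order again began with *NFKB2* (55.8 RPKM) before *TNFAIP3* and *RELA*, which overlapped, and *NFKBIA*, *REL* and *RELB* overlapped as neighbours. With CPI203 *NFKBIA* stood in the third place at 37.4 RPKM, after *NFKB2* (56.8 RPKM) and *RELA* (41.2 RPKM) and ahead of *TNFAIP3* (28.1 RPKM), and no neighbours overlapped.

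Inhibitor levels were also set against *RELA*, whose libraries overlapped with DMSO in both experiments, within each library, where scaling between libraries plays no part. *NFKBIA* reached 0.276 and 0.313 of the *RELA* level in DMSO and 0.43 and 0.45 with SGC-CBP30, and 0.467 and 0.495 in DMSO and 0.938 and 0.877 with CPI203. *TNFAIP3* reached 0.98 and 1.02 of the *RELA* level in DMSO and 0.451 and 0.469 with SGC-CBP30, and 0.991 and 1.13 in DMSO and 0.69 and 0.673 with CPI203. The DMSO pairs differed in the levels of both *TNFAIP3* and *RELA*, and overlapped in the ratio of these genes. They did not overlap in the ratio of *NFKBIA* to *RELA*, or in that of *TNFAIP3* to *NFKBIA*, which follows. The ratio of *TNFAIP3* to *NFKBIA* was 3.55 and 3.26 in DMSO and 1.05 and 1.04 with SGC-CBP30, and 2.12 and 2.28 in DMSO and 0.736 and 0.767 with CPI203. With either compound the transcripts of these feedback inhibitors thus shifted from *TNFAIP3* towards *NFKBIA*, and in the CPI203 libraries *NFKBIA* was the more abundant.

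**Figure D3:**
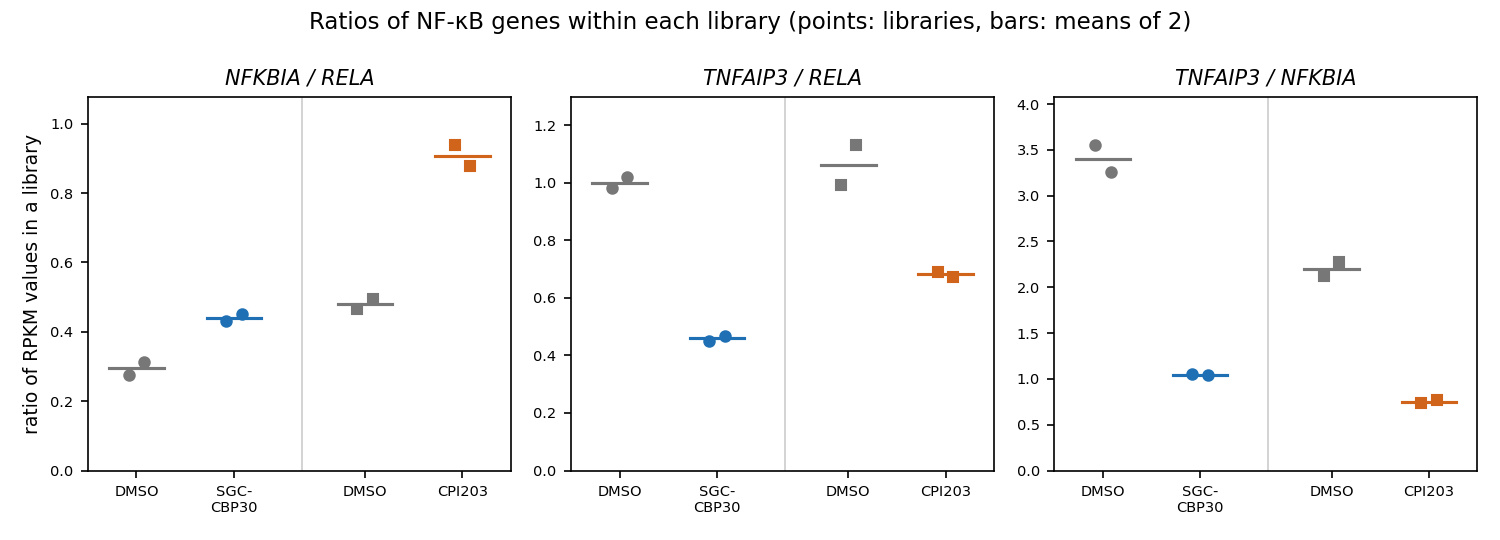
Ratio of RPKM values within each library (vertical axes, starting at 0) for *NFKBIA* to *RELA*, *TNFAIP3* to *RELA* and *TNFAIP3* to *NFKBIA*, with points for libraries and bars for means of 2. The third panel shows treated libraries at 1.05 and 1.04 with SGC-CBP30 and at 0.736 and 0.767 with CPI203, below every DMSO library.

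The wider pathway was followed in 6 lists of 99 genes that leave out the 10 members, of which 93 had a value above 0 and 56 were tested. With SGC-CBP30 3 of the 56 genes were called higher and 8 lower, beside 3.47% and 3.79% of all genes. With CPI203 11 were called higher and 16 lower, beside 13.4% and 14.4% of all genes. The genes called higher include *TNFRSF12A* with both compounds and *IER3* with CPI203. These genes reached the mean of 1 RPKM needed for testing only through treated libraries, so their calls are no support for a rise of the pathway. The median log2 fold change of the 56 genes was -0.08 with SGC-CBP30 and 0.11 with CPI203, beside the medians over all genes of 0.07 and -0.01. By this measure the 10 members lay lower than the rest of their pathway with both compounds, a difference that was not tested.

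In the remaining IκB family, with 4 genes tested, *BCL3*, a nuclear IκB protein that acts with NF-κB dimers on DNA, fell with both compounds. It went from 18.0 and 20.4 RPKM in DMSO to 10.7 and 8.70 RPKM with SGC-CBP30 (log2 fold change -0.99, adjusted p = 0.000502), and from 13.8 and 11.1 RPKM to 5.37 and 6.40 RPKM with CPI203 (-1.07, adjusted p = 7.02e-05). *NFKBIZ*, another nuclear IκB gene, stood at 1.56 and 1.61 RPKM in DMSO against 1.67 and 1.30 RPKM with SGC-CBP30, but rose with CPI203 from 1.05 and 1.21 RPKM to 4.60 and 5.56 RPKM (log2 fold change 2.07, adjusted p = 3.89e-06). Its response differed between the compounds by 2.16 (adjusted p = 6.66e-05). Of the IκB genes tested, *NFKBIA* alone thus rose with both compounds.

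The list of kinases and their partner proteins held 10 tested genes. With CPI203 1 of them was called higher and 2 lower, beside 13.4% and 14.4% of all genes. With SGC-CBP30 the only gene called was *IKBKE*, which encodes the IKK-related kinase IKKε, beside 7.26% of all genes called. It fell from 29.4 and 31.6 RPKM to 13.8 and 11.8 RPKM with SGC-CBP30 (log2 fold change -1.25, adjusted p = 4.69e-06) and from 17.7 and 17.4 RPKM to 7.02 and 7.10 RPKM with CPI203 (-1.30, adjusted p = 4.91e-07). With CPI203 *IKBKB*, the catalytic kinase of the canonical route, fell as well (-0.63, adjusted p = 5.87e-06), and *TAB2*, which links the kinase TAK1 to ubiquitin chains, rose (0.63, adjusted p = 1.8e-05). None of the 19 genes tested in the list of adaptors and ubiquitin enzymes was called by limma with SGC-CBP30, beside 7.26% of all genes. Of the 19, 6 rose and 3 fell by less than 1.5-fold (11 had an unadjusted p under 0.05). Of all genes 40.4% had an adjusted p under 0.05. With CPI203 5 of the 19 were called higher and 3 lower, beside 13.4% and 14.4% of all genes. Those called higher include *CYLD*, a deubiquitinase that restrains NF-κB (1.04, adjusted p = 1.49e-06), and *RIPK1*, a kinase of the TNF receptor complex (1.01, adjusted p = 1.9e-06). Among those called lower, *MYD88*, the adaptor of Toll-like receptors, had the largest fall (-0.93, adjusted p = 7.21e-07).

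Of the 18 receptor genes only 5 passed the mean of 1 RPKM needed for testing, and they did not move alike. *TNFRSF1A*, outside the naming rule, had log2 fold changes of 0.01 (adjusted p = 0.976) with SGC-CBP30 and 0.13 (adjusted p = 0.349) with CPI203. The other tested receptor genes held larger changes. *TNFRSF13B* and *TNFRSF17* encode TACI and BCMA, receptors of the plasma cell survival factors BAFF and APRIL. *TNFRSF17* was at 116 and 126 RPKM in DMSO against 87.2 and 89.8 RPKM with SGC-CBP30 (log2 fold change -0.45, adjusted p = 0.000105), and went from 139 and 145 RPKM to 27.3 and 26.6 RPKM with CPI203 (-2.40, adjusted p = 7.11e-10). *TNFRSF13B* fell by 0.80 with SGC-CBP30 (adjusted p = 1.57e-05) and by 2.46 with CPI203 (adjusted p = 2.8e-09). *TNFRSF1B*, a receptor of TNF, fell by 0.62 and by 1.00. *TNFRSF12A*, the receptor of TWEAK, gave 0.231 and 0.455 RPKM in DMSO against 3.20 and 2.41 RPKM with SGC-CBP30, and 0.830 and 1.13 RPKM in DMSO against 6.69 and 6.94 RPKM with CPI203. It reached the mean of 1 RPKM needed for testing only through its treated libraries, so its being among the genes called higher is no support for a rise of the receptors. Among 3 ligand genes tested none was called by limma with SGC-CBP30 (2 had an unadjusted p under 0.05), beside 7.26% of all genes. The lymphotoxin gene *LTA* (-0.54, adjusted p = 0.00145) and *CD70*, a TNF family ligand gene outside the naming rule (-0.28, adjusted p = 0.0063), fell by less than 1.5-fold. With CPI203 *LTA* (-1.84, adjusted p = 1.42e-07) and the second lymphotoxin gene *LTB* (-1.10, adjusted p = 0.00248) fell. *LTB* was low there, at 0.909 and 1.36 RPKM in DMSO against 0.405 and 0.539 RPKM with CPI203. It reached the mean needed for testing through the libraries of the SGC-CBP30 experiment (2.13 to 2.78 RPKM).

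Among 15 tested target genes 2 were called higher and 4 lower with SGC-CBP30 (3.47% and 3.79% of all genes), and 3 higher and 5 lower with CPI203 (13.4% and 14.4% of all genes). The 3 include *IER3*, outside the naming rule, which reached the mean needed for testing only through its CPI203 libraries (0.942 and 0.797 RPKM in DMSO against 1.74 and 1.22 RPKM). *CXCL10*, a chemokine gene that interferons also induce, went from 163 and 161 RPKM to 40.6 and 38.0 RPKM with SGC-CBP30 (log2 fold change -2.04, adjusted p = 5.18e-08) and from 90.7 and 94.9 RPKM to 22.5 and 23.9 RPKM with CPI203 (-1.99, adjusted p = 2.69e-09). *ICAM1*, an adhesion molecule gene, fell by 0.63 and by 1.76, and *IL15RA*, a cytokine receptor gene, by 0.29 and by 1.90. The adhesion receptor gene *CD44* fell with SGC-CBP30 from 49.3 and 49.2 RPKM to 24.9 and 21.4 RPKM (-1.09, adjusted p = 5.19e-06). It rose with CPI203 from 28.9 and 30.9 RPKM to 58.0 and 55.1 RPKM (0.92, adjusted p = 2.08e-06). Its DMSO level was itself different in the CPI203 experiment (-0.72, adjusted p = 5.57e-05). *CCL3*, a chemokine gene, rose with SGC-CBP30 (1.5, adjusted p = 1.35e-05) and fell with CPI203 (-0.39, adjusted p = 0.0103, short of 1.5-fold). The target genes, like the members, thus did not move in a single direction with either compound.

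**Figure D4:**
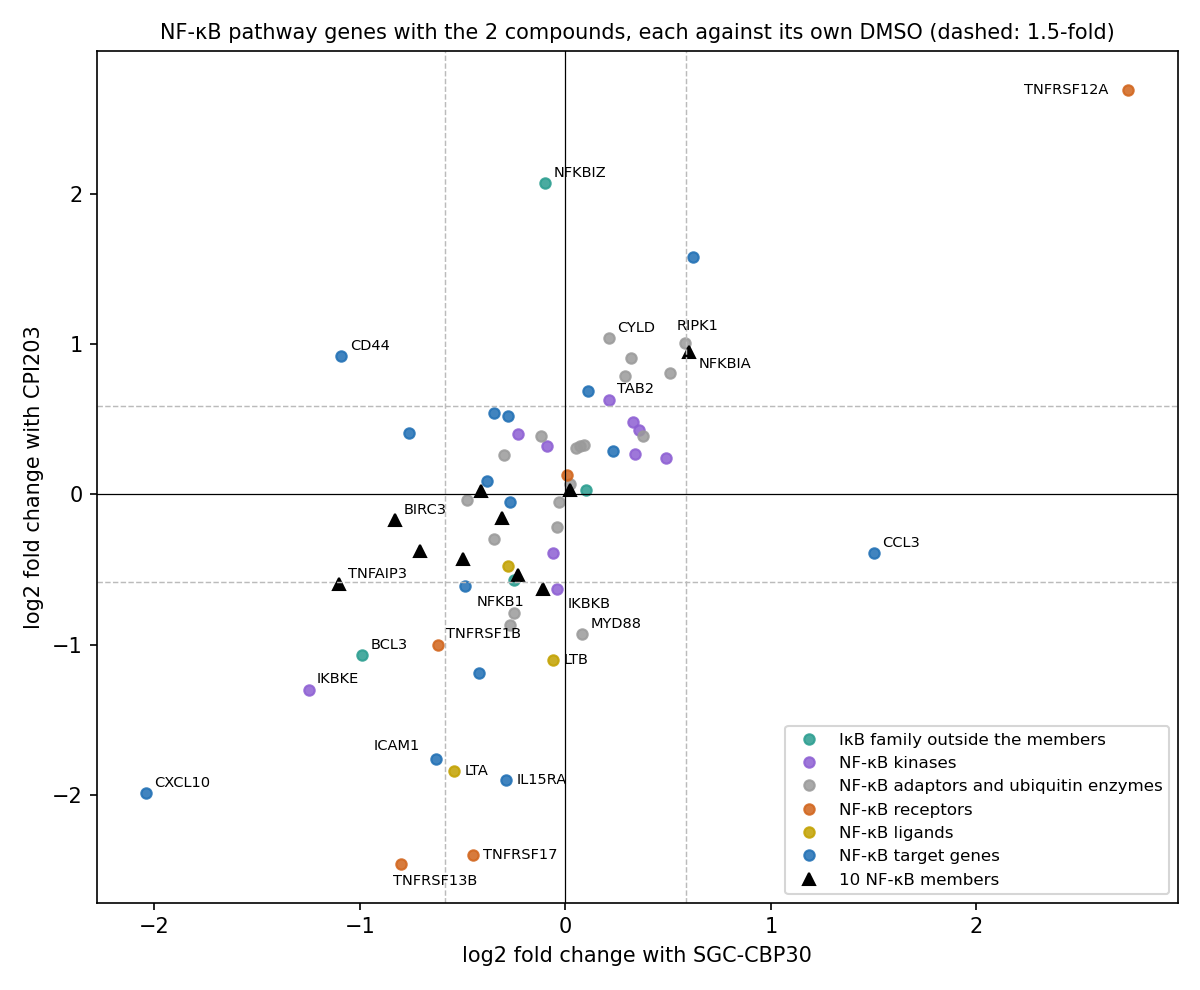
Log2 fold change with SGC-CBP30 (horizontal axis) and with CPI203 (vertical axis), each against its own DMSO libraries, of the 10 members (black triangles) and of the 56 tested genes of the 6 pathway lists (circles, colour by list), with dashed lines at 1.5-fold and names for genes in the text. *TNFRSF12A*, tested only through its treated libraries, lies at the upper right (2.74 and 2.69), *CXCL10* at the lower left (-2.04 and -1.99), and *CD44* at the upper left (-1.09 and 0.92).

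The libraries carried the markers of plasma cells. All 8 plasma cell markers were expressed, with *SDC1* between 19.5 and 63.6 RPKM and a summed level between 1220 and 1270 RPKM in DMSO against 904 and 932 RPKM with SGC-CBP30, and between 1320 and 1330 RPKM in DMSO and 828 and 842 RPKM with CPI203. Of 5 B cell markers *PAX5* had no value above 0, *MS4A1* was at 0.045 RPKM or less, and only *BLK* was tested. *BLK* gave 10.2 and 9.36 RPKM in DMSO against 2.96 and 3.16 RPKM with SGC-CBP30. In the CPI203 experiment it gave 2.67 and 2.65 RPKM in DMSO against 0.579 and 0.853 RPKM with CPI203. It fell with both compounds, and its level in the CPI203 experiment's DMSO libraries was lower by 1.84 on the log2 scale (adjusted p = 3.12e-05). The summed T cell markers lay between 0.0365 and 0.0889 RPKM in the SGC-CBP30 experiment and between 0.83 and 1.36 RPKM in the CPI203 experiment, a difference that goes with that between the DMSO pairs and whose part in it was not tested. The summed myeloid markers reached at most 2.70 RPKM and the stromal markers 0.335 RPKM, and *MPO*, *COL3A1* and *LUM* had no value above 0. The single plasma cell markers did not move alike: with SGC-CBP30 *IRF4* was at -1.36 (adjusted p = 8.65e-08) and *SDC1* at 0.14 (adjusted p = 0.166), and with CPI203 *SDC1* fell by 1.55 and *PRDM1* rose by 0.36 (adjusted p = 6.74e-05). The summed level moved with treatment beside the values of the NF-κB genes, and its part in them was not tested. In bulk RNA a change of the level in every cell and a change in the share of cells that express a gene cannot be told apart. Depth, estimated from the steps of low RPKM values, lay between 25950000 and 50100000 reads per library and was highest with SGC-CBP30.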

How the data were processed

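The authors deposited RPKM values, 1 for each gene and library, made by a sequencing provider from total RNA of LP-1 cells. The submitters' processing notes name TopHat 1.4.1, Cufflinks and hg19, without their role. Whether the libraries kept strand is not given in the sources used here. The table holds 24 further columns of libraries outside these samples, which were not used.

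DMSO pairs were matched to compounds by how the libraries are numbered in the labels. What sets the numbering series apart is not given there, and each is called an experiment in the text. After dropping 27 genes with a missing value, the 14732 genes averaging 1 RPKM or more were converted to log2(RPKM + 0.1), a scale that understates changes of low genes. Group means over all 8 libraries were fitted with limma 3.58.1 in R 4.3.3 (lmFit, contrasts, eBayes with trend), with Benjamini-Hochberg adjustment over all genes tested. A gene was called at an adjusted p under 0.05 and at least 1.5-fold, and "rose" and "fell" are used at an adjusted p under 0.05. No count test was run, since the table holds no counts. The fit was tested on simulated data.

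The 10 members and the pathway and marker lists were chosen with earlier results of these data known. The text names all members and, from each pathway list and for each compound, up to 3 called genes with the largest change whose treated libraries lay on 1 side of both DMSO libraries. It also names the 3 genes most like the member with the largest difference between the compounds.

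Depth was estimated from single-exon genes, because their lowest values (under 0.5 RPKM) are multiples of what 1 read is worth. Between 65.0% and 77.1% of these were whole within 0.1 read, so no counts were recovered. The alternatives tried were other filters (5 RPKM or none), a pseudocount of 1, scaling by medians or by quantiles, pooling the 4 DMSO libraries, a replicate block, separate fits, no intensity trend, other fold limits and leaving out each library. Tables and figures used Python 3.11.15, pandas 2.3.3, numpy 2.4.6 and matplotlib 3.10.9. Promoter windows are RefSeq's on GRCh38.p14, of which 8 of the 10 members had at least 1.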

Additional observations from a re-analysis of the deposited data

Results flagged for a closer look

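The response to CPI203 differed from that to SGC-CBP30, by limma's test of the difference between the effects (CPI203 effect minus SGC-CBP30 effect, log2 scale, adjusted p under 0.05), for 5 of the 10 members. The difference was -0.52 for *NFKB1*, 0.44 for *NFKB2*, 0.35 for *NFKBIA*, 0.50 for *TNFAIP3* and 0.65 for *BIRC3*. Only *NFKBIA* among these rose with both compounds, and only *TNFAIP3* fell with both.

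Among the named genes of the pathway lists, the difference was positive for *NFKBIZ* (2.16), *CD44* (2.01), *CYLD* (0.83), *RIPK1* (0.44) and *TAB2* (0.42). It was negative for *TNFRSF17* (-1.95), *CCL3* (-1.90), *TNFRSF13B* (-1.66), *IL15RA* (-1.61), *LTA* (-1.30), *ICAM1* (-1.13), *LTB* (-1.03), *MYD88* (-1.0), *IKBKB* (-0.60) and *TNFRSF1B* (-0.38). *CD44* and *CCL3* changed in opposite directions with the compounds, each with an adjusted p under 0.05 on both sides. The DMSO pairs of *CD44* also differed between the experiments (-0.72). Dose and experiment cannot be told apart from the compound in any of these.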

How the results depend on the processing

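With SGC-CBP30 the count of 4 called members became 7 with no minimum fold change, 1 at 2-fold, and 2 to 4 as single libraries were left out, the 2 without DMSO replicate 1. With CPI203 the count of 3 became 6 with no minimum fold change, 0 at 2-fold whatever the p in limma, since the largest change was 0.95, and 2 to 4 with libraries left out. The 5 members that differed between the compounds stayed between 5 and 6. The SGC-CBP30 count was 3 with a pseudocount of 1, with median scaling and with all 4 DMSO libraries as control. The CPI203 count was 2 with a pseudocount of 1 and 4 with all 4 DMSO libraries as control. With quantile normalization the SGC-CBP30 count stayed at 4, with *NFKBIE* called in place of *NFKBIA*. Over the values of single members, 490 alternatives kept direction and side of the call, 10 ended a call, 5 made one and 12 changed direction. With all 4 DMSO libraries as control the SGC-CBP30 change was 0.03 for *NFKB1* and 0.04 for *RELB*, and the CPI203 change -0.18 for *NFKB2* and -0.19 for *RELA*. Median scaling gave -0.06 for *RELA* with SGC-CBP30. Leaving out libraries gave *RELA* -0.03 to 0.08 with SGC-CBP30, -0.03 to 0.10 with CPI203 and -0.05 to 0.08 for the difference, *NFKB2* -0.01 to 0.06 with CPI203, and *NFKBIE* -0.07 to 0.20 for the difference. The cause of these changes was not tested. *TRAF3* was not tested at a mean of at least 5 RPKM.

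The replicate block left 4, 3 and 5 members for the 3 comparisons, and the crossed numbers, added after seeing the data, the same counts. The paper describes its RNA-seq fold changes as taken against paired DMSO controls, without naming the pairs, whereas the main fit here used no pairing. Same-numbered libraries had deviations that correlated at -0.172 and -0.039 over 8298 genes, so the numbers were not shown to pair the libraries. The table holds no counts, so what depth limits was not computed per gene.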

Other observations

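*BIRC3*, the member with the largest difference between the compounds, had a pattern over the 8 libraries that was most like those of *ZNF217*, *NUCB2* and *FLI1*, by Pearson correlation of log2 values among the 10544 genes that averaged 5 RPKM or more (0.994, 0.992 and 0.989). *ZNF217*, a zinc finger gene, stood at 55.8 and 52.1 RPKM in DMSO against 29.1 and 28 RPKM with SGC-CBP30, and at 51.2 and 53.9 RPKM in DMSO and 44.7 and 45.0 RPKM with CPI203. *FLI1*, an ETS transcription factor gene, stood at 35.8 and 34.1 RPKM in DMSO against 18.1 and 18.0 RPKM with SGC-CBP30, and at 31.4 and 30.5 RPKM in DMSO against 25.8 and 26.4 RPKM with CPI203. The libraries share 4 groups and the genes were picked as the highest of all, so these values are a description.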
